A study of Rattus norvegicus with 8 samples.

Results

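The genes described here are the calcium-sensing receptor gene Casr and 8 genes for calcium-binding proteins of neurons (Hpca, Hpcal1, Hpcal4, Ncs1, Vsnl1, Calb1, Calb2 and Pvalb), measured in the rat hippocampus with 1-colour Agilent arrays. Every non-control probe whose RefSeq accession maps to one of the 9 symbols was included, whatever its signal. This gave 9 probes of 8 genes out of 41012 probes, 15184 of which carried a gene name. Vsnl1 had a pair of probes (A_42_P534882 and A_42_P832417), and the other 7 genes had 1 each: A_43_P11765 for Casr, A_43_P15405 for Hpca, A_44_P231597 for Hpcal1, A_44_P538538 for Hpcal4, A_44_P367110 for Ncs1, A_44_P236255 for Calb1 and A_42_P698310 for Calb2. No probe was matched to Pvalb, which was not analysed here. The list of symbols was chosen on the differences in processed signal between the diets on these same arrays, which were known when it was drawn up, so those differences are given as a description and support nothing by themselves.

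The CCH group was 4 male Wistar rats fed the CE-2 standard chow with 0.1% coral calcium hydride (CCH), a powder of coral calcium that carries hydrogen. The control group was 4 male Wistar rats fed CE-2 alone. All rats entered at 6 weeks of age and were killed at 8 weeks, and each array held the hippocampal RNA of 1 rat. Free-text descriptions of the samples mention a lesion model and drug injections and go against the titles and treatment labels, which set the groups used here. The 4 CCH arrays sat on 1 slide with its own scan and the 4 control arrays on another, which leaves the diet inseparable from slide and scan: they cannot be told apart. In whole tissue, fewer cells of a type and less RNA per cell cannot be told apart either.

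CASR is a receptor of the plasma membrane that couples through G proteins to phospholipase C when extracellular calcium is high. It is best known from the parathyroid gland and the kidney, where it controls hormone release and calcium excretion, and in brain it has been described in neurons and in cells of the oligodendrocyte lineage. Hippocalcin (Hpca), the hippocalcin-like proteins (Hpcal1 and Hpcal4), neuronal calcium sensor 1 (Ncs1) and visinin-like protein 1 (Vsnl1) are EF-hand proteins with an N-terminal myristoyl group, and in several of them calcium binding exposes that group and moves the protein to membranes. Calbindin (Calb1), calretinin (Calb2) and parvalbumin (Pvalb) are EF-hand proteins known chiefly as calcium buffers. In the rat hippocampus calbindin marks granule cells and some pyramidal cells and interneurons, while calretinin and parvalbumin mark separate sets of interneurons.

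Of the 9 probes, 3 separated the groups with no overlap between the 4 CCH and the 4 control arrays. Groups did not overlap in 11.3% of all tested probes. Since the members were chosen with this contrast known, nothing is read from the count. Casr was higher in CCH, and Hpcal1 and Hpcal4 were lower. Sequences upstream of the annotated starts of these 3 genes are shown because these are the members whose groups did not overlap. Each run is the 250 bases before the start, 5′ to 3′ on the gene's strand, from RefSeq on build GRCr8, and lies at chr11:77740364-77740613 for Casr, chr6:46206644-46206893 for Hpcal1 and chr5:140739658-140739907 for Hpcal4, all on the plus strand. Capitals mark a match on either strand to any of 5 motifs: the GC box GGGCGG, the CCAAT box CCAAT, the TATA box TATAAA, the cyclic AMP response element TGACGTCA and the E box CANNTG.
Casr: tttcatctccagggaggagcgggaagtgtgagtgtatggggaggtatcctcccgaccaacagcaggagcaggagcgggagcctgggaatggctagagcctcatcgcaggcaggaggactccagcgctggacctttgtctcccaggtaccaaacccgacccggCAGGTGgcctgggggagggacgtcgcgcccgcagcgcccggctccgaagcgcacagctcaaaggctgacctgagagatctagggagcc
Hpcal1: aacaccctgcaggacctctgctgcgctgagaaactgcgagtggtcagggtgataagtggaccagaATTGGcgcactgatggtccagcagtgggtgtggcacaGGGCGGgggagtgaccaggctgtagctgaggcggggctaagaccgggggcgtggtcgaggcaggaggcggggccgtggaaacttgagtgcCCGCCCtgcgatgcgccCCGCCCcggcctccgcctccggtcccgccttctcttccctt
Hpcal4: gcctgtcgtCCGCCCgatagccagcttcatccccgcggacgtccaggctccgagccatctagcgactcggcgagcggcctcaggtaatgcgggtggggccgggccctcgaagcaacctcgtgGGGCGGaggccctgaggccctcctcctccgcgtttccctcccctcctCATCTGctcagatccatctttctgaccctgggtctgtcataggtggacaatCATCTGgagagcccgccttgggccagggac

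The Casr run held 1 E box and no match to the other 4 motifs. The Hpcal1 run held 3 GC boxes and 1 CCAAT box, and the Hpcal4 run held 2 GC boxes and 2 E boxes. Of 33469 rat promoters cut the same way, 30.5% held a GC box, 34.0% a CCAAT box, 12.9% a TATA box, 1.59% a cyclic AMP response element and 65.5% an E box. These are letter matches within 250 bases, and no binding was measured. The G and C content was 64.8% for Casr, 67.2% for Hpcal1 and 66.4% for Hpcal4, against a median of 51.2% over those promoters. Among the other members with a promoter sequence it was 80.8% for Ncs1, 62.8% for Pvalb, 60.8% for Vsnl1 and 50.8% for Hpca. The array grid names the older build rn4, so the arrays' own coordinates were not used.

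Values below are log2 processed signals minus the 75th percentile of each array's non-control spots, so 0 is the level that 3 in 4 spots of the array stay under. A positive difference means a higher value in CCH. Probes bind with different strength, so no gene's level is set against that of another. The 75th percentile of the processed signal ran from 642 to 882 on the CCH arrays and from 563 to 700 on the control arrays, and 76.3% to 79.9% of spots were well above background on any array. All 9 member probes were well above background on all 8 arrays, none of their spots carried an outlier mark and none was saturated. Each member probe was printed once per array. Among 263 other probes printed 10 times per array, the median within-array SD was 0.07 on the log2 scale. For the 32 of these with a mean signal within 1 log2 unit of Casr it was 0.09. Such a within-array SD does not measure the spread between arrays, slides or scans.

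CA pyramidal neuron markers were measured for 7 of 9 genes and pan-neuronal markers for 7 of 8. Their summed scaled signals ran from 16.3 to 18.5 in CCH and from 13.5 to 16 in control for the pyramidal list, and from 116 to 134 in CCH and from 109 to 140 in control for the pan-neuronal list. Only 4 of 8 dentate granule neuron markers were measured. Choroid plexus markers, of which 9 of 11 were measured, varied most among the arrays, with a summed signal from 1.88 to 187 in CCH and from 35.1 to 253 in control. CCH replicates 2 and 4 held the low choroid values.

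Casr had a processed signal of 125, 138, 136 and 87.5 in CCH replicates 1 to 4, against 51.5, 56.5, 46.3 and 52.6 in control replicates 1 to 4. After scaling it stood at -2.82, -2.44, -2.27 and -2.87 in CCH, against -3.76, -3.32, -3.69 and -3.47 in control. Every CCH array lay above every control array, and the gap between the nearest CCH and control arrays was 0.44. The mean was -2.60 ± 0.29 in CCH and -3.56 ± 0.20 in control (SD, n = 4 each), a difference of 0.96 ± 0.17 (SE), or 1.94-fold. Of all tested probes, 1.40% had a larger absolute difference, a description only, since the members were chosen on such differences. Casr was the dimmest member relative to its background. Its median pixel signal was 134, 144, 145 and 105.5 over a local background of 36, 38, 37 and 39 in CCH, and 79, 80, 73.5 and 77.5 over a local background of 32, 32, 29 and 32 in control. The local background beside this spot was thus also higher on every CCH array, and its part in the difference was not tested. With normexp background correction on median pixel signals and an offset of 50, a setting chosen after seeing the data, the difference was 0.33. For signals as low as these, from 46.3 to 138, an added offset of 50 shrinks the log2 difference by itself. The parts of offset and background in this value were not tested.

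**Figure D1:**
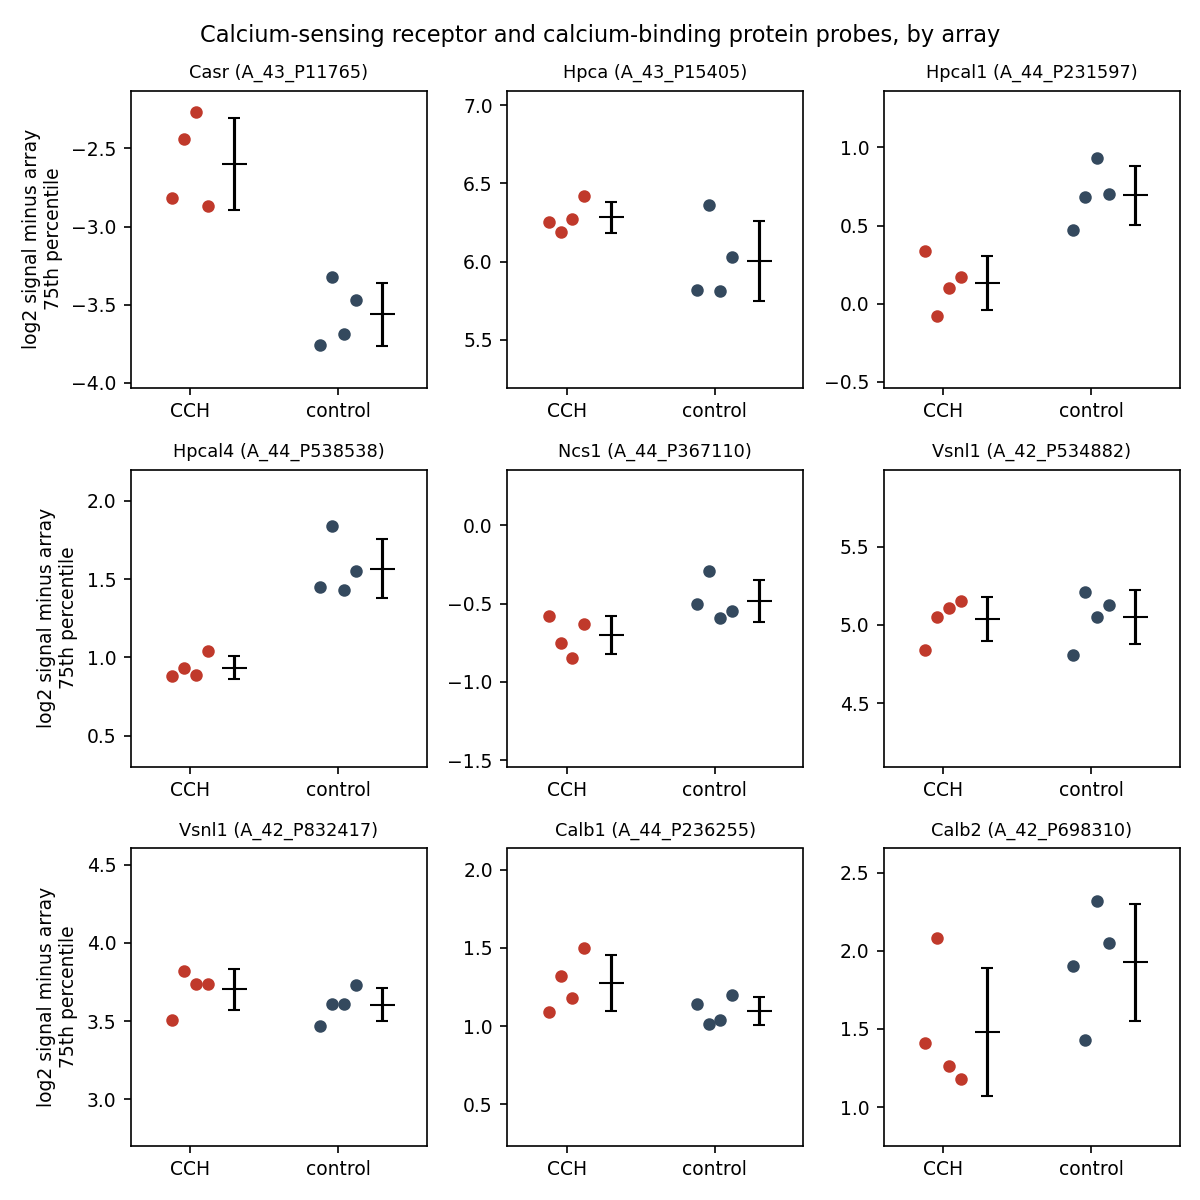
Log2 processed signal minus the array's 75th percentile for the 9 probes, with 1 point per array (replicates 1 to 4 from left to right within a group) and the mean ± SD beside each group of 4; the panels span equal heights. Casr is higher in CCH with no overlap, Hpcal1 and Hpcal4 are lower with no overlap, and the other 6 probes overlap.

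Among the neuronal calcium sensors, Hpcal4, a brain protein also called visinin-like protein 2, stood at 0.88, 0.93, 0.89 and 1.04 in CCH replicates 1 to 4, against 1.45, 1.84, 1.43 and 1.55 in control replicates 1 to 4. All CCH arrays lay below all control arrays, and the 4 CCH values fell within 0.15 of each other while the controls spread over 0.41. The mean was 0.93 ± 0.07 in CCH and 1.57 ± 0.19 in control (SD, n = 4 each), a difference of -0.64 ± 0.11 (SE), so the control level was 1.55-fold that of CCH. Hpcal1, also called visinin-like protein 3, stood at 0.34, -0.08, 0.10 and 0.17 in CCH, against 0.47, 0.68, 0.93 and 0.70 in control. Its groups were separated by 0.13, with CCH replicate 1 nearest to control replicate 1. The mean was 0.13 ± 0.17 in CCH and 0.70 ± 0.19 in control (SD, n = 4 each), a difference of -0.56 ± 0.13 (SE), so the control level was 1.48-fold that of CCH. Absolute differences larger than that of Hpcal4 occurred in 4.66% of tested probes and larger than that of Hpcal1 in 6.27%. These ranks are a description as well, given how the members were chosen.

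Hpca, the calcium sensor named for its abundance in hippocampal pyramidal cells, had the opposite sign and overlapping groups. It stood at 6.25, 6.19, 6.27 and 6.42 in CCH, against 5.82, 6.36, 5.81 and 6.03 in control. Control replicate 2 lay within the CCH range and the other 3 controls lay below it. The difference was 0.28 ± 0.14 (SE), from 6.28 ± 0.10 in CCH and 6 ± 0.25 in control (SD, n = 4 each). Of the 7 CA pyramidal markers measured beside Hpca, 6 had a higher mean in CCH, where 5175 of 9741 named genes did, and 0 were called. Their score (the mean log2 value of the list's genes, each centred on its mean over all arrays) overlapped between the groups. It was -0.03, 0.20, 0.15 and 0.18 in CCH and -0.16, 0.03, -0.12 and -0.24 in control. Their summed scaled signal did not overlap, with 16.3 to 18.5 in CCH and 13.5 to 16 in control. The part of these markers in the Hpca difference was not tested.

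Ncs1, a sensor that regulates transmitter release and phosphatidylinositol 4-kinase, stood at -0.58, -0.75, -0.85 and -0.63 in CCH, against -0.50, -0.29, -0.59 and -0.55 in control. CCH replicate 1 lay just above control replicate 3, and apart from this pair the groups were separate. The difference was -0.22 ± 0.10 (SE). Vsnl1, a sensor widely expressed in forebrain neurons, stood at 4.84, 5.05, 5.11 and 5.15 in CCH and at 4.81, 5.21, 5.05 and 5.13 in control on probe A_42_P534882. On its other probe, A_42_P832417, it stood at 3.51, 3.82, 3.74 and 3.74 in CCH and at 3.47, 3.61, 3.61 and 3.73 in control. Groups overlapped on both probes, though on A_42_P832417 the CCH replicates 2, 3 and 4 lay above all controls, replicates 3 and 4 only just. The differences were -0.01 ± 0.12 on A_42_P534882 and 0.10 ± 0.10 on A_42_P832417 (SE). Values minus their group means had a Pearson correlation of 0.804 between these probes over the 8 arrays, which share RNA and scaling.

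The calcium buffers overlapped between the groups. Calb1 stood at 1.09, 1.32, 1.18 and 1.5 in CCH, against 1.14, 1.01, 1.04 and 1.20 in control, a difference of 0.18 ± 0.11 (SE). CCH replicates 2 and 4 lay above all controls and the other 2 CCH arrays lay among them, and without CCH replicate 4 the difference was 0.10. Of the 4 dentate granule markers measured beside Calb1, 2 had a higher and 2 a lower mean in CCH, and their score ran from -0.16 to 0.04 in CCH and from -0.09 to 0.23 in control. Calb2 stood at 1.41, 2.08, 1.26 and 1.18 in CCH, against 1.90, 1.43, 2.32 and 2.05 in control, a difference of -0.44 ± 0.24 (SE). CCH replicate 2 lay above 3 of the controls, and the other 3 CCH arrays lay below all of them. Calb2 varied most within its groups, with a pooled SD of 0.39 against a median of 0.20 over all tested probes, and 15.6% of those had a larger one. Of 8 other interneuron markers measured without Calb2, 6 had a lower mean in CCH and 0 were called, with scores from -0.21 to 0.02 in CCH and from 0.00 to 0.15 in control. Parvalbumin interneuron markers, measured for all 8 genes listed beside Pvalb, also had a lower mean in CCH for 6, with 0 called and scores from -0.29 to 0.00 in CCH and from -0.14 to 0.24 in control. The part of these lists in the Calb2 difference was not tested.

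**Figure D2:**
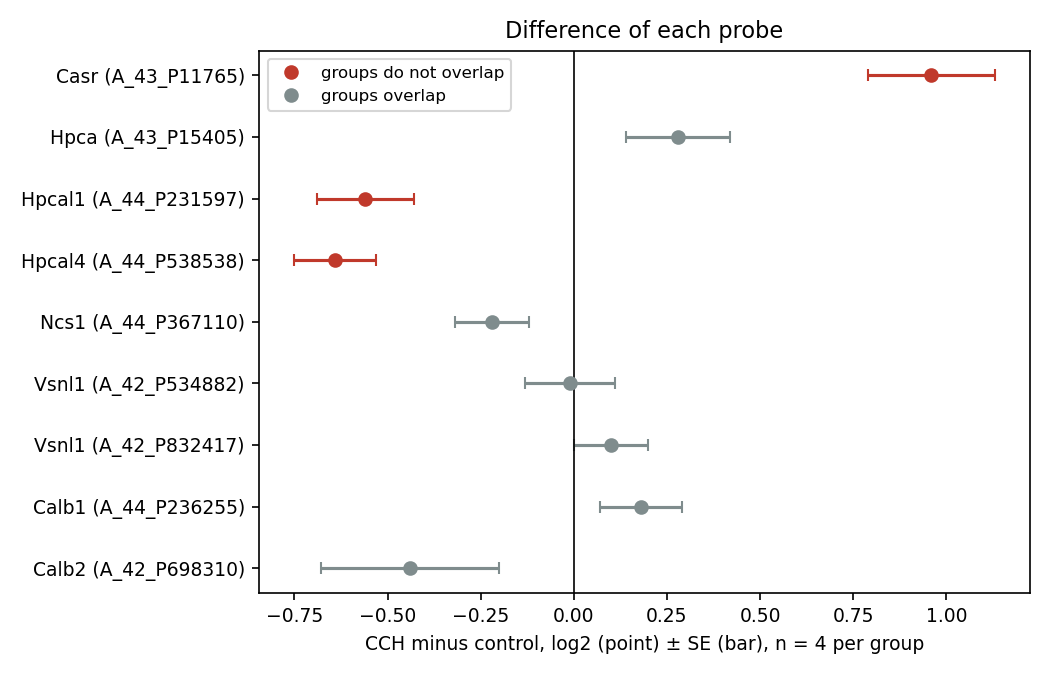
CCH minus control on the log2 scale (point) with its standard error from limma (bar) for each of the 9 probes, 4 arrays per group. Casr at 0.96 lies far to the right, Hpcal4 at -0.64 and Hpcal1 at -0.56 to the left, and both Vsnl1 probes lie near 0.

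Over all 31618 tested probes, limma called 55 at an adjusted p under 0.05 (0.174%, with 0.0759% higher and 0.098% lower in CCH), and of the 9 member probes it called 0. At an unadjusted p under 0.05 it counted 3 member probes (Casr, Hpcal1 and Hpcal4), where 15.4% of all tested probes passed. Groups did not overlap in 11.3% of all tested probes, with CCH above control in 6.59% and below it in 4.70%. Among the members CCH lay above control in 1 probe and below it in 2. Since the members were chosen with this contrast known, nothing is read from these counts. The members' median difference was -0.01, against 0.03 over all tested probes. Their median absolute difference was 0.28, against 0.15.

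The gene most like each member across the 8 arrays was sought among 12428 other named and tested probes, by the Pearson correlation of values minus their group means. With 8 arrays and so many probes, high values are common, and 12 to 253 probes passed 0.9 depending on the member. For Casr the most alike was Mog, a myelin glycoprotein gene of oligodendrocytes, with a correlation of 0.991 on probe A_44_P397725. The next ones, named after their values were seen, were the myelin enzyme gene Cnp (0.975) and Hapln2 (0.970), a link protein gene of the nodes of myelinated axons, followed by Neurod6 (0.946), a pyramidal neuron gene. Mog on this probe stood at 1.76, 1.94, 1.97 and 1.71 in CCH and at 1.41, 1.61, 1.43 and 1.52 in control, so CCH replicates 2 and 3 and control replicate 2 were the high arrays of their groups for Mog as for Casr. The brightest Mog probe, A_43_P12283, was less alike, with a correlation of 0.703. Over the brightest probes of the 8 oligodendrocyte markers the correlation with Casr ran from 0.326 for Mbp to 0.975 for Cnp. Of the 16 named probes past 0.9 for Casr, 2 were on the oligodendrocyte list. The probes outside that list differed in both directions. Among them Nectin4 (0.94) and Prr5l (0.33) had a higher mean in CCH, and Rabep1 (-0.60), Cul5 (-0.59) and Rbm28 (-0.31) a lower one.

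All 8 genes of the oligodendrocyte list were measured and had a higher mean in CCH, as Casr did, with a median difference of 0.35 and 0 called. Their score was 0.03, 0.26, 0.35 and 0.13 in CCH replicates 1 to 4, against -0.33, -0.15, -0.21 and -0.09 in control replicates 1 to 4, with no overlap. The summed scaled signal ran from 274 to 367 in CCH and from 258 to 311 in control. Ugt8, which makes the main myelin glycolipids, differed by 0.78 ± 0.12, and the myelin genes Mal by 0.68 ± 0.10 and Mobp by 0.52 ± 0.10 (SE). The smaller differences of the list included Mbp at 0.20 and Cnp at 0.13. The part of oligodendrocyte markers in the Casr difference was not tested.

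**Figure D3:**
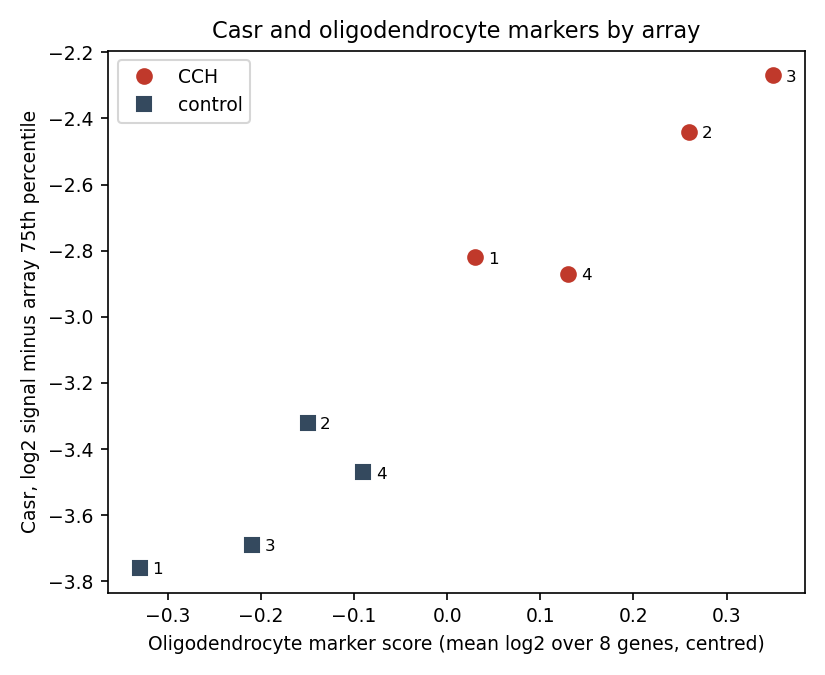
Casr log2 signal minus the array's 75th percentile (vertical axis) against the oligodendrocyte marker score, the mean centred log2 value of 8 genes (horizontal axis), with 1 point per array labelled by its replicate number. The 4 CCH arrays lie above and to the right of the 4 control arrays, and CCH replicates 2 and 3 are highest on both axes.

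For the other members the most alike genes were of mixed kind. They were Shank1, a postsynaptic scaffold gene, for Hpca (0.988), Rnft2 for Hpcal4 (0.989), the thyroglobulin gene Tg for Hpcal1 (0.964), Btbd3 for Ncs1 (0.983), the dystrophin gene Dmd for Vsnl1 (0.991), Hdgfl3 for Calb1 (0.945) and Klhl7 for Calb2 (0.962).

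Genes that work beside the members were taken from 4 lists of 111 genes in all, 94 of which were tested, each by its brightest probe. Of these 94 genes limma called 0 higher and 0 lower in CCH (adjusted p over all probes), beside 18 of 9741 named genes (0.185%, with 0.0719% higher and 0.113% lower), and 16 had an unadjusted p under 0.05, where 13.9% of named genes did. Groups did not overlap in 17 of the 94 (10 above and 7 below), or 18.1%, against 11.1% of named genes (6.2% above and 4.95% below). The lists were drawn up with earlier results of these data known, so nothing is read from these shares. The median difference of the 94 genes was 0.04, against 0.02 over named genes.

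Other EF-hand and calcium-binding proteins had a higher mean in CCH for 19 and a lower one for 17 of 36 genes tested, with a median difference of 0.03. Kcnip1, a potassium channel-interacting protein of the same family as the neuronal calcium sensors, had the lowest adjusted p of the 4 lists. It stood at -5.31, -5.54, -5.34 and -5.44 in CCH and at -6.09, -6.17, -6.28 and -5.85 in control, a difference of 0.69 ± 0.11 (SE, limma adjusted p = 0.0562). This probe was dim, and with normexp the difference was -0.09. S100b, a calcium-binding protein of astrocytes and oligodendrocytes, differed by 0.73 ± 0.27 (SE, limma adjusted p = 0.243), with CCH replicate 1 at -1.28 above the other CCH arrays at -2.32 to -2.15, and by 0.46 with normexp. Necab1, a neuronal EF-hand protein, differed by -0.43 ± 0.18 (SE, limma adjusted p = 0.319), and by -0.25 without CCH replicate 1. Rcn2, a calcium-binding protein of the endoplasmic reticulum, had groups that did not overlap at a difference of only -0.07 ± 0.07 (SE).

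Relatives and signalling partners of CASR had a higher mean in CCH for 13 and a lower one for 11 of 24 genes, with a median difference of 0.02. Plcb1, a phospholipase C of the Gq pathway, stood at 2.39, 2.55, 2.75 and 2.39 in CCH and at 2.81, 3.26, 2.94 and 2.81 in control, a difference of -0.44 ± 0.14 (SE, limma adjusted p = 0.185). Its other probe was at 0.11. Plcb3, another phospholipase C, differed by 0.22 ± 0.10 (SE, limma adjusted p = 0.337). Calca, the gene for calcitonin and its related peptide, differed by 0.33 ± 0.19 (SE, limma adjusted p = 0.448), by 0.14 without CCH replicate 1, and by -0.99 on its other probe. Plcb3 and Calca were counted as not overlapping. Their nearest CCH and control arrays were equal as rounded, at -1.66 for Plcb3 and -1.84 for Calca.

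Calmodulin kinases, calcineurin and calmodulin partners had a higher mean in CCH for 15 and a lower one for 8 of 23 genes, with a median difference of 0.10. Camk2g, a subunit of calmodulin kinase II, stood at 1.27, 1.38, 1.51 and 1.40 in CCH and at 1.82, 2.00, 1.73 and 1.90 in control, a difference of -0.47 ± 0.09 (SE, limma adjusted p = 0.0723). Adcy1, a calmodulin-stimulated adenylate cyclase, differed by 0.40 ± 0.11 (SE, limma adjusted p = 0.149), and by 0.25 with normexp. Rcan2, an inhibitor of calcineurin, differed by 0.41 ± 0.13 (SE, limma adjusted p = 0.2), with 0.07 on its other probe. Eef2k, a calmodulin-dependent kinase of translation elongation, differed by -0.24 ± 0.09 (SE, limma adjusted p = 0.269).

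Partners of the neuronal calcium sensors had a higher mean in CCH for 7 and a lower one for 4 of 11 genes, with a median difference of 0.15. Kcnd2, the A-type potassium channel that binds the Kcnip proteins, differed by -0.54 ± 0.25 (SE, limma adjusted p = 0.347), with CCH replicate 1 at 1.07 below the other CCH arrays at 2.07 to 2.25, and by -0.27 without that array. Chrna4, a nicotinic receptor subunit whose surface level VSNL1 regulates, differed by -0.45 ± 0.16 (SE, limma adjusted p = 0.219). Map3k12, a neuronal kinase whose place on this list is less certain, differed by 0.38 ± 0.13 (SE, limma adjusted p = 0.222).

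**Figure D4:**
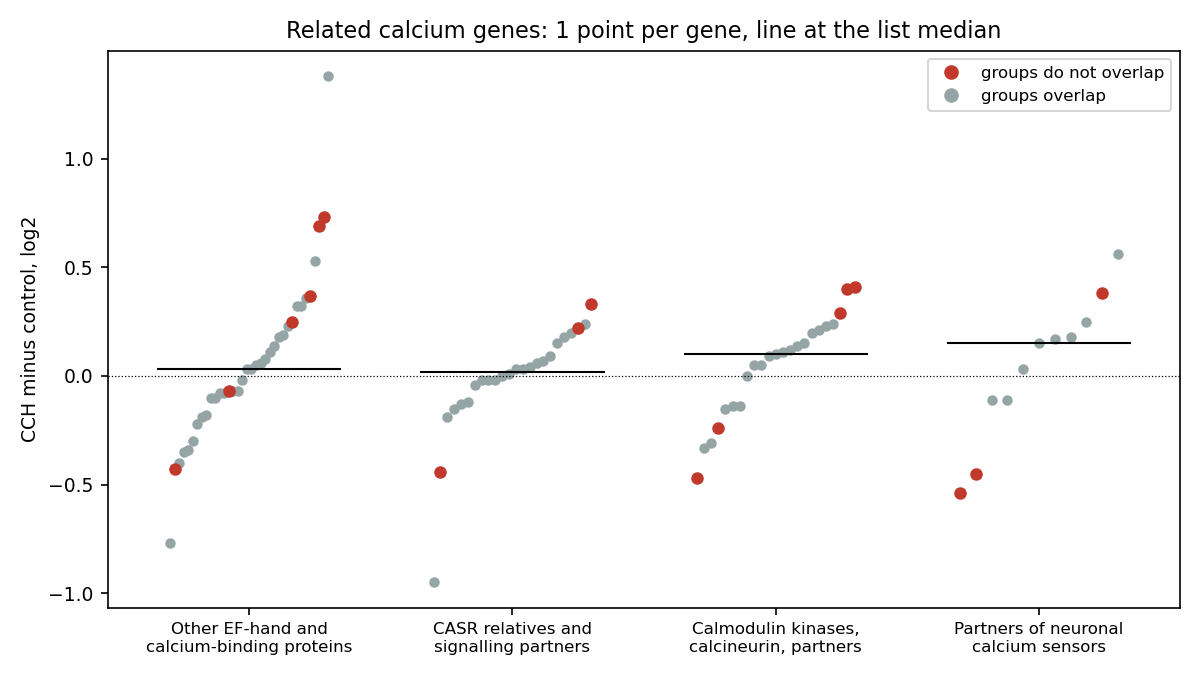
CCH minus control on the log2 scale for each tested gene of the 4 related lists, ordered by size within a list, with a line at the list median and the genes whose groups do not overlap in red. The medians lie between 0.02 and 0.15, and the 17 genes in red lie on both sides of 0.

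The sign of Casr, Hpca, Hpcal1, Hpcal4, Ncs1, Calb1, Calb2 and the dimmer Vsnl1 probe was the same under all 19 alternative settings. The detection filters, kept marked spots, replicate block and trended robust fit leave these differences as they were by construction. Where groups do not overlap (Casr, Hpcal1 and Hpcal4), leaving out arrays cannot change the sign either. The kept signs are thus no support for these differences. The brighter Vsnl1 probe kept its sign in 14 of the 19. The difference ran from 0.33 to 1.05 for Casr, from -0.68 to -0.54 for Hpcal4, from -0.65 to -0.48 for Hpcal1 and from 0.21 to 0.39 for Hpca. For Calb1 it ran from 0.04 to 0.25 and for Calb2 from -0.64 to -0.31.

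**Figure D5:**
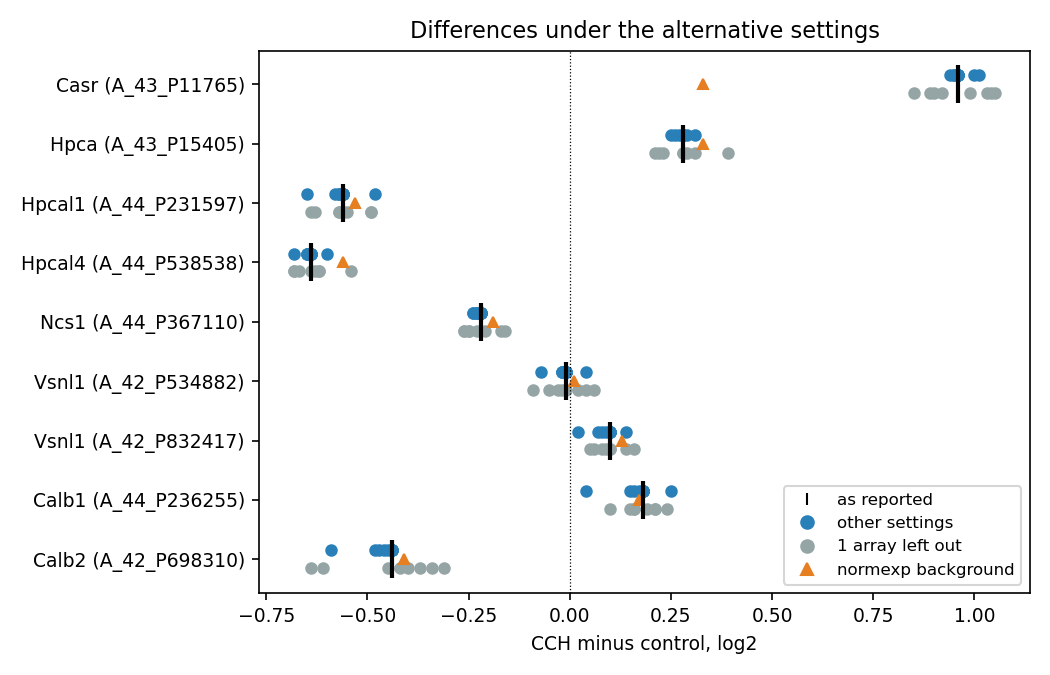
CCH minus control on the log2 scale for each member probe as reported (bar), with 1 array left out (grey), with normexp background correction (triangle) and under the other settings (blue). Casr ranges from 0.85 to 1.05 with 1 array left out and lies at 0.33 with normexp. Over all settings Hpcal4 ranges from -0.68 to -0.54 and Hpcal1 from -0.65 to -0.48.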

How the data were processed

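Gene expression in the hippocampus was measured on 8 one-colour (Cy3) Agilent arrays, 4 from CCH and 4 from control rats. Spots were read by the authors with Agilent Feature Extraction 9.5, per the submitters' processing notes. The deposited processed signal is, per the file headers, an intensity on a linear scale after background subtraction and detrending, and arrays were not normalized to each other. The authors' value table holds the same intensity rounded (largest relative difference 0.00498) and was not used further.

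Spots marked as non-uniform or population outliers were set to missing. From each log2 processed signal the 75th percentile of its array (43379 spots other than controls) was subtracted, and repeated spots of a probe were averaged. Probes well above background on at least 4 of 8 arrays with at least 3 values per group were tested (31618). Gene names came from a RefSeq table (GRCr8) matched on unversioned accessions (12206 genes). The diets were compared with limma 3.58.1 under R 4.3.3 (lmFit and eBayes, two-sided, Benjamini-Hochberg over all tested probes, threshold 0.05), and the fit was tested on simulated data. The number of arrays limits the precision.

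The members and lists were chosen with earlier results of these data known. The text names all members, of each related list the called genes or otherwise up to 2 per direction with the largest difference among those whose groups did not overlap, and for each member its 1 most alike gene; further genes alike to Casr were named after their values were seen. No gene set test was run. Marker scores left the members out. The alternatives were normexp background correction, quantile, median and detected-probe scaling, other detection filters, keeping marked spots, a replicate block, a trended robust fit, array weights, a mean over a gene's probes, and leaving out arrays. Normexp had been planned on mean spot signals, could not be run on them here, and was run on median pixel signals. A slide block could not be fitted, since neither of the 2 slides held both groups.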

Additional observations from a re-analysis of the deposited data

How the results depend on the processing

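The number of called probes depended strongly on the setting. Against 55 of 31618 probes as reported (24 higher and 31 lower), limma called 246 of 31618 (69 higher and 177 lower) with normexp. It called 29 of 41009 without a detection filter and 209 of 29562 with detection on all 8 arrays. The trended robust fit gave 215 of 31618, array weights 1361 of 31618, and the fit without CCH replicates 2 and 4 gave 0 of 31213. With 1 array left out it called between 0 and 733, and only the fit without CCH replicate 1 passed 1 (733 of 31350). Of the 9 member probes, 0 were called as reported, 1 with normexp (Hpcal4), 2 each with detection on all 8 arrays and with the trended robust fit (Casr and Hpcal4), 3 with array weights, and between 0 and 3 with 1 array left out. The 3 were Casr, Hpcal1 and Hpcal4, called without CCH replicate 1. Normexp on median pixel signals and the fit without CCH replicates 2 and 4 were chosen after seeing the data. Of the related genes, 0 were called as reported, 1 with detection on all 8 arrays (Kcnip1), 2 with array weights (Kcnip1 and Camk2g) and between 0 and 1 with 1 array left out (Kcnip1, without CCH replicate 1). Kcnip1 turned to -0.09 with normexp. The replicate block left 0 calls over all probes, 0 among the members and 0 among related genes. Members and lists were chosen with earlier results of these data known, so nothing is read from their counts under any setting. Same-numbered arrays had correlations of deviations between -0.00521 and 0.246, and 3 of 8 arrays were most alike their own number. With so few arrays, these values cannot tell whether same-numbered arrays share more than a number. The causes of these changes were not tested. Dim probes such as Casr have little signal over background, and the part of this in the changes was not tested. Normexp on mean spot signals and a slide block were planned and not run.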
